A study of Mus musculus with 11 samples.

Results

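Culture set 3 was 1 of 4 sets into which the names of the deposited data divide RNA sequencing libraries of mouse cavernous endothelial cells, the cells that line the blood spaces of the penis. It held 3 of the 11 libraries, 1 in high glucose, 1 in high glucose with Hsp70, a heat shock chaperone protein, and 1 in normal glucose. The other 8 libraries were the high glucose and Hsp70 libraries of set 2 and the high glucose, Hsp70 and normal glucose libraries of set 4 and of set 5. The libraries were picked by the set number in their names, but the comparison was proposed because levels in set 3, those of Pecam1, Adgre1, Cdh5 and Dcn among them, had been seen to stand apart. All levels of set 3 against the other sets are therefore given as descriptions, with no p-value for any gene. All 11 libraries came from corpus cavernosum tissue, and all cells were grown in medium 199 with 20% fetal bovine serum, antibiotics and 0.5 mg/ml heparin and treated for 5 days. The labels give no strain, age, passage, glucose concentration or form of Hsp70, do not say what a set is, and do not say that libraries came from separate cultures or animals.

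Endothelial cells are recognised by junction and surface proteins such as VE-cadherin and CD31 and by transcription factors of the ETS and SOXF families. The corpus cavernosum also holds fibroblasts, smooth muscle, pericytes, nerve with its Schwann cells and resident macrophages, and striated muscles lie at its base. Many of these cell types can attach and grow in culture beside endothelium, each with its own defining genes.

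Promoters are shown for genes that stood on opposite sides of the comparison, interferon-stimulated genes that stood lower in set 3 and endothelial and macrophage genes that mostly stood higher. Each is the RefSeq window of 300 bases, from 250 bases before to 50 bases after the start of the gene (GRCm38.p6, written in the direction of the gene), with matches to the motif searched, on either strand, in capitals. Ifit3 (chr19:34583279-34583578, plus strand) holds 2 matches and Rsad2 (chr12:26456403-26456702, minus strand) holds 1 match to 2 copies of GAAA with any 2 bases between them (2 copies of TTTC on the other strand), a core of the interferon response element. Emcn (chr3:137340828-137341127, plus strand) and Sele (chr1:164047984-164048283, plus strand) hold 1 match each to ACAGGAAG (CTTCCTGT), an ETS family site. Ctss (chr3:95526536-95526835, plus strand) holds 1 match to GAGGAAGT (ACTTCCTC), a form of the site of the myeloid factor PU.1. The Ctss window also holds gaaaccgaaa, a match to the 2 copies of GAAA above. It is left in small letters because that motif was marked only for interferon-stimulated genes. Ctss itself stood higher in set 3, with a difference of 5.0.
Ifit3: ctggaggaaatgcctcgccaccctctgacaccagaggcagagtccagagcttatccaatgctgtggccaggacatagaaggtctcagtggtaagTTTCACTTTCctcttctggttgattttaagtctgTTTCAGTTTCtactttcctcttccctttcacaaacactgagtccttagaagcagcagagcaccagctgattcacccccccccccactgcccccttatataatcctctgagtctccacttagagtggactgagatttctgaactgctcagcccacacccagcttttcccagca
Rsad2: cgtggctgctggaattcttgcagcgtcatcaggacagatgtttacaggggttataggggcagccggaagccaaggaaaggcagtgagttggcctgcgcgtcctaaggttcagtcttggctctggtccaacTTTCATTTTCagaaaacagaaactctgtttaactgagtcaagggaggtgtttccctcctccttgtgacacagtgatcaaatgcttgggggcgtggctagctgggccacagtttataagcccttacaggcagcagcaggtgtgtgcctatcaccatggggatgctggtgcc
Emcn: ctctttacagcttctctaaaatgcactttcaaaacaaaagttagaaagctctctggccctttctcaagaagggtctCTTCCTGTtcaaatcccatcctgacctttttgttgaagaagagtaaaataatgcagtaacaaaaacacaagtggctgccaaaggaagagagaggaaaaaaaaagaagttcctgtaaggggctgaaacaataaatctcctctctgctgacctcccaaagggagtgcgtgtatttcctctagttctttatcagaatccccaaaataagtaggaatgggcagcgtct
Sele: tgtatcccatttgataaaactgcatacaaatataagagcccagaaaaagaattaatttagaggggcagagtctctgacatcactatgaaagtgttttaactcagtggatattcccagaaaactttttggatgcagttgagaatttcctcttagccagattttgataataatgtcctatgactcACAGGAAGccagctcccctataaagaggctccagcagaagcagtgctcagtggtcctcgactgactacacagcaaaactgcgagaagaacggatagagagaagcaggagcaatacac
Ctss: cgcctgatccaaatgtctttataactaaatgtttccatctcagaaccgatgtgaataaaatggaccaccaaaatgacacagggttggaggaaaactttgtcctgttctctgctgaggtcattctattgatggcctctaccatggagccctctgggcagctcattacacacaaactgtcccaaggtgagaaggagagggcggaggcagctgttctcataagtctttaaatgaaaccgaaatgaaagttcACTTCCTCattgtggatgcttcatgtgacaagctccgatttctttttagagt
The paired GAAA motif was found in 16 of the 28 interferon-stimulated genes, of 38, that had a window (57.1%), against 3.99% of all 27025 genes with a window. ACAGGAAG was found in 3 of 14 endothelial genes, of 24 (21.4%, against 4.06%) and GAGGAAGT in 2 of 14 macrophage genes, of 20 (14.3%, against 3.69%). CAGCTG, a palindromic E-box read by the muscle factor MyoD, was found in 9 of 23 sarcomere genes, of 27 (39.1%, against 18.3%). The last 3 forms were picked with counts of related forms in view. Each share describes letters in these windows, not binding.

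Levels are log2(normalized count + 1), differences are set 3 minus the other sets with the treatment group as covariate, and standard errors (SE) are from limma. A gene said to have given a value gave this difference. Normalized counts added up to 24.8 to 27.8 M per library, genes at a normalized count of at least 1 numbered 17146 to 17473 in set 3 and 16480 to 17665 in the others, and the ribosomal RNA gene Rn45s took 2.11% to 4.17% and 0.638% to 7.0%. In sets 4 and 5 the same 2753 genes were listed at 0 in all 6 libraries and other undetected genes held small values above 0, whereas sets 2 and 3 held 0 for undetected genes, so the values fell into 2 kinds and only set 2 was of one kind with set 3. The normal glucose library of set 3 stood apart from the other 2 of its set. Over 11639 genes above a mean level of 6 with a known transcript, its deviations from the mean of all libraries correlated with GC content at 0.317 and with transcript length at -0.345, against -0.0185 and -0.108 for the high glucose and -0.0681 and 0.0335 for the Hsp70 library. The Hsp70 library of set 4 stood farther out, at 0.482 and -0.348, and the libraries of set 5 on the other side, at -0.288 to -0.329 and 0.265 to 0.472. For the difference of set 3 from the other sets these correlations were 0.0984 and -0.176. All are across genes and carry no p.

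Of 18248 genes tested, 969 (5.31%) stood higher in all 3 libraries of set 3 than in all 8 others with a difference of at least 1 log2 unit, and 202 (1.11%) stood lower by the same rule. These 1171 genes are called apart below. After quantile normalization the split was 787 higher and 344 lower. The imbalance grew with size: 511 genes stood higher and 33 lower by 2 units or more, 257 and 3 by 3, 120 and 1 by 4, and 47 and 0 by 5. Yet the median difference over all genes was -0.00487, and the median size of a difference was 0.252. Against set 2 alone, 2240 genes (12.3%) stood apart higher and 706 (3.87%) lower, and 1107 of the 1171 were among them. The genes just inside the threshold were Smtnl2 at 1.004 and Snhg5 at 1.006, and those just outside were Jag2 at 0.9945 and Lipe at 0.9986. At 10 or more normalized counts in every library of set 3 and under 1 in all 8 others stood 4 genes, chosen after their values were seen. They were the claudin Cldn5 (21.4 to 31.2 against at most 0.18), the apoptosis inhibitor Bcl2a1b (44.3 to 81.4 against at most 0.947), the myeloid receptor Clec5a (10.9 to 13.7 against at most 0.966) and Gm14548 (10.8 to 22.0 against at most 0.122). Bcl2a1b has near-identical copies, and how reads were shared among them is not given. No gene showed the reverse.

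As a measure of the whole transcriptome, the mean absolute log2 difference between 2 libraries was 0.33 to 0.501 within set 3, 0.625 to 0.723 from set 3 to set 2, 0.539 to 0.777 to set 4 and 0.587 to 0.731 to set 5. Between the other sets it was 0.407 to 0.704. Within set 4 it was 0.362 to 0.619, which reaches into the range between sets 3 and 4, within set 5 it was 0.412 to 0.428, and between the 2 libraries of set 2 it was 0.409. The levels that prompted the comparison also enter limma's counts, which are therefore no test of it and describe only how differences compare with the spread of libraries. At limma's adjusted threshold of 0.05 they were 1102 genes (6.04%) higher and 435 (2.38%) lower, with libraries of 1 set taken as independent. After median centring that split was 975 and 640. The total of 1537 was 722 without the high glucose library of set 3 and 794 without its Hsp70 library. With the set as a random block (estimated correlation 0.238) the counts were 694 (3.8%) and 217 (1.19%), and with each set reduced to 1 mean they were 459 (2.52%) and 82 (0.449%). With 1 set against 3, an exact test over sets could reach no p below 0.25.

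**Figure D1:**
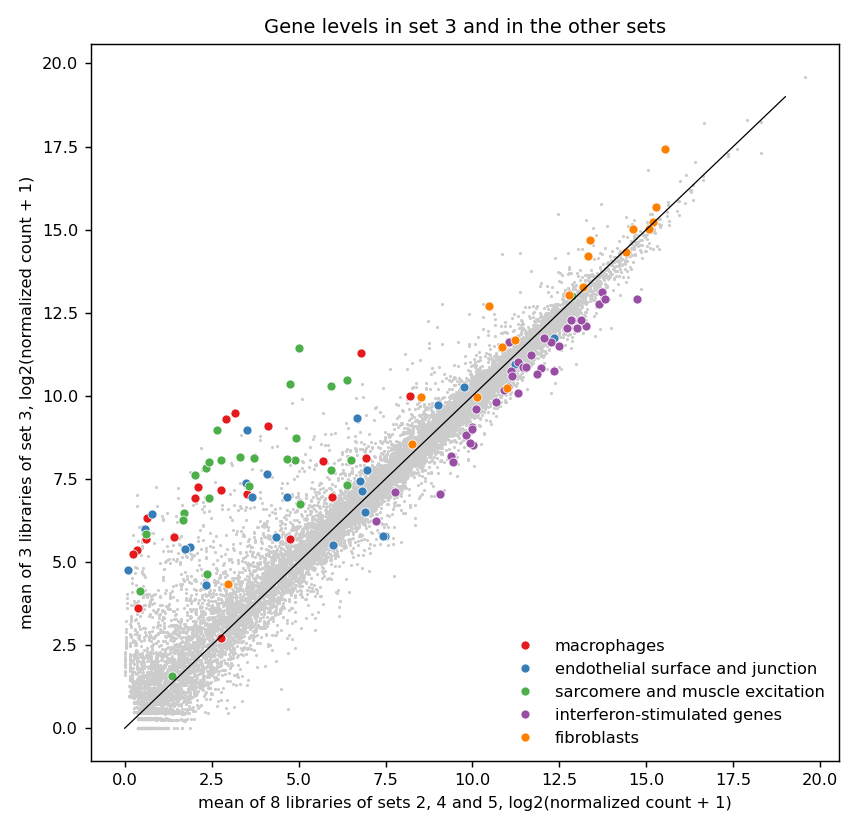
Mean level of each gene tested in the 3 libraries of set 3 (vertical axis) against the 8 libraries of sets 2, 4 and 5 (horizontal axis), both log2(normalized count + 1), with 5 gene lists coloured and the line of equal levels. Macrophage, sarcomere and many endothelial genes lie above the line at low levels of the other sets, fibroblast genes lie mostly at high levels of both axes, and interferon-stimulated genes lie just below the line.

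Endothelial genes, of the cell type that the labels name, divided. Pecam1, which encodes the adhesion protein CD31, stood in set 3 at 9.01 in high glucose, 8.86 with Hsp70 and 9.07 in normal glucose, against 2.68 to 4.51 (median 3.56) in the other 8 libraries. The 2 ranges lay far apart, and the difference was 5.46 (SE 0.287). In bulk libraries, fewer cells of a type and less RNA per cell cannot be told apart. Cdh5, which encodes VE-cadherin, stood at 9.52, 9.45 and 9.01 in the same order in set 3, against 5.68 to 8.26 (median 6.63). Its difference was 2.66 (SE 0.45), and 1.77 against set 2, whose Hsp70 library was the highest of the 8. The values of set 3 are given below in the order high glucose, Hsp70, normal glucose.

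Of 24 endothelial surface and junction genes, 13 stood apart higher and 2 lower, with a median difference of 1.68, or 1.51 against set 2 (all genes 0.04). Tie1, an angiopoietin co-receptor, stood at 6.34, 6.65 and 6.38, against 0 to 2.33, a difference of 5.67. Robo4, a guidance receptor of vessels, and Cldn5, the tight junction claudin of endothelium, gave 5.39 and 4.66. Kdr, the main VEGF receptor, stood at 7.46, 7.44 and 7.23, against 2.42 to 4.60 (difference 3.88), and Nos3, the endothelial nitric oxide synthase, at 5.57, 4.98 and 5.62, against 0.10 to 2.94 (difference 3.66). Tie1, Robo4 and Cldn5 had medians under 1 outside set 3, where a log2 difference depends on the added 1. With 10 added in its place the median of the list was 1.03.

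Other endothelial genes stood no higher in set 3 or stood lower. Sele and Selp, the selectins that catch leukocytes on activated endothelium, stood lower, Sele at 6.09, 5.43 and 5.84 against 6.89 to 7.72, with differences of -1.71 and -1.65. Eng and Cd34, both also made by some non-endothelial cells, stood above a level of 10 in every library, and gave -0.26 and -0.57. Tek, the angiopoietin receptor, and Flt1, a VEGF receptor, gave -0.49 and -0.46 with overlapping libraries. With Cd34 and Eng included, the summed level of the 24 genes was 10300 to 10500 normalized counts in set 3 and 8570 to 14000 in the others.

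Among 13 endothelial transcription factors, 4 stood apart higher and 1 lower (median 0.75, but 0.08 against set 2). The SOXF factors Sox18 and Sox17 stood at 4.90, 4.50 and 4.17 and at 3.64, 1.34 and 2.69, where no other library exceeded 1.14 and 0.08. Erg, the ETS factor of endothelial identity, gave 2.01 and Hey1, a Notch target, 1.75. Gata2 stood lower, at 8.13, 7.98 and 8.01 against 9.17 to 9.60 (difference -1.40, SE 0.121). Of 6 lymphatic endothelial genes tested, Reln stood apart higher (3.01), whereas Prox1, the defining lymphatic factor, stood at 4.47, 4.27 and 2.79 against 0.01 to 4.06 and overlapped.

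Some genes through which endothelium signals to its neighbours stood higher too. Dll4, the Notch ligand of arterial and tip cells, gave 4.24, its receptor Notch4 2.24 and the Notch target Nrarp 2.98. Of 13 genes of the Notch list 4 stood apart higher and none lower. Among 12 angiogenic ligands Pdgfb, by which endothelium recruits pericytes, stood at 5.49, 5.50 and 5.43 against 0 to 1.74, and Angpt2, an antagonist of Tie2, gave 1.87. Vegfa gave 0.05 (SE 0.13).

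**Figure D2:**
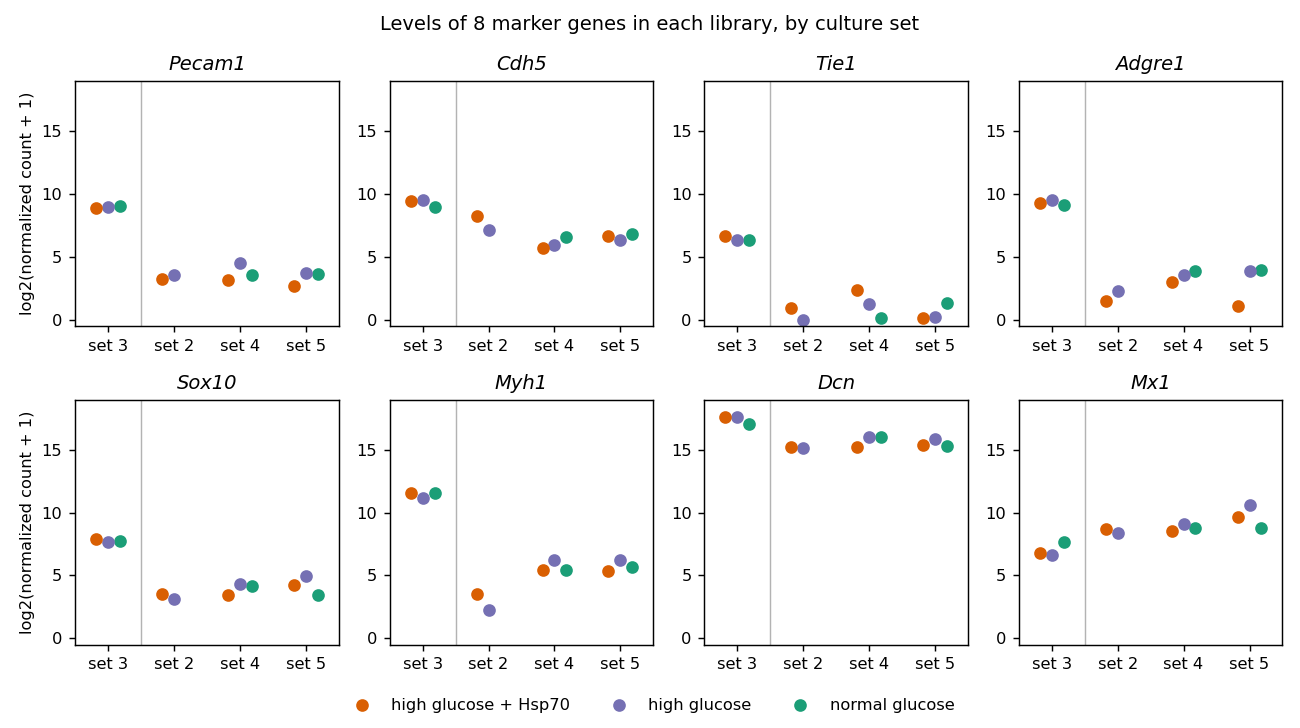
Level of 8 marker genes, log2(normalized count + 1) on the vertical axis, in each of the 11 libraries (points, coloured by treatment), by culture set along the horizontal axis with set 3 at the left. Pecam1, Tie1, Adgre1, Sox10 and Myh1 stand in set 3 well above every other library, Cdh5 and Dcn above them by less, and Mx1 below them.

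How far each set looked like endothelium or fibroblasts was read per length of transcript. Endothelial surface genes had a median of 19.9 normalized counts per kb in set 3 and of 6.74, 8.69 and 9.5 in sets 2, 4 and 5. Fibroblast genes had a median of 2710 per kb in set 3 and of 1550, 1790 and 1900 in the same sets. Fibroblast genes exceeded endothelial genes by these medians in all 4 sets, set 3 included. So did pericyte genes, at 212 in set 3 and 48.5, 60.2 and 72.8 in sets 2, 4 and 5. Adipocyte genes did too, at 280, 109, 153 and 120 in the same order. With no pure cells to compare, these medians set lists side by side and do not rank identities. Whether the label of endothelial cells holds was not tested. Macrophage genes had a median of 59.4 per kb in set 3, above its endothelial genes, and of 1.16, 2.65 and 4.04 in the others.

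Fibroblast genes stood no lower in set 3. Of 18, 4 stood apart higher and none lower, with a median of 0.40. Dcn, the matrix proteoglycan decorin, stood at 17.63, 17.57 and 17.08 in set 3, against 15.17 to 16.02, a difference of 1.90 (SE 0.217). Lum, which encodes lumican, Pi16 and the surface protein Thy1 gave 2.24, 1.45 and 1.28. Those that overlapped included the fibroblast receptor Pdgfra (0.06), Col1a1 (-0.10), Col1a2 (-0.05) and the activation marker Fap (-0.77).

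The collagens as a list stood level, with a median of -0.03 that became 0.33 against set 2, and 2 of 20 apart higher and 1 lower. Col12a1, a fibril-associated collagen of tendon and dense tissue, stood at 13.88, 14.62 and 12.80 against 10.54 to 12.45 (difference 2.11), and Col14a1 of the same family gave 1.69. Col15a1, a basement membrane collagen, stood lower (-1.41). Among 26 other matrix genes 6 stood apart higher and 2 lower. Fmod, which encodes the tendon proteoglycan fibromodulin, stood at 8.32, 8.62 and 7.78 against 3.01 to 4.71 (difference 4.54), Aspn gave 3.15 and Postn 1.83. The calcification inhibitor Mgp (-1.66) and fibronectin, Fn1 (-1.03), stood lower, Fn1 at 17.07, 17.37 and 17.44 against 17.92 to 18.69.

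A list of 13 tendon and small leucine-rich matrix genes was drawn up after these values were seen, so its count adds description only. Of it, 8 stood apart higher and none lower (median 2.20). They included Tnmd, the tendon membrane protein tenomodulin (2.92), Thbs4 (2.68), Kera (2.20) and Epyc (3.59), while Scx, the tendon transcription factor, gave 0.10. Among 20 proteases and inhibitors, Mmp12, the elastase of macrophages, stood at 8.67, 8.84 and 8.46 against 2.81 to 5.04 (difference 4.76), and Mmp13, a collagenase, gave 2.45. The median of that list was 0.09, and none of its members stood apart lower.

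Macrophage genes stood far higher in set 3. Of 20, 17 stood apart higher and none lower, with a median of 4.43 (4.50 against set 2; 2.41 with 10 added in place of 1). Adgre1, the surface protein F4/80, stood at 9.52, 9.26 and 9.14 in set 3, against 1.13 to 3.98 (median 3.26), a difference of 6.33 (SE 0.495). Marco, a scavenger receptor, gave 6.28 and C1qb, a chain of complement C1q, 5.67, with Lyz2, the lysozyme of myeloid cells, at 11.41, 11.11 and 11.39 against 5.91 to 7.04. All 3 chains of C1q stood at 4.96 or more in set 3 and at 1.25 or less elsewhere. The summed level of the 20 genes was 6440 to 7620 normalized counts in set 3, against 666 to 956, with no overlap.

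The pattern within the myeloid list was uneven. Cd163, a scavenger receptor of resident macrophages, stood at 2.27, 2.24 and 3.65, against 1.96 to 3.59, and gave -0.05. Csf1r, the receptor for the growth factor of macrophages, stood at 5.96, 5.71 and 5.45 against 4.26 to 5.86 (difference 0.99, SE 0.32). Only the Hsp70 library of set 4, at 5.86, overlapped set 3. Csf1, the ligand, gave -0.68. Of the genes of antigen presentation by class II, H2-Ab1 alone of 6 stood apart (2.29), and Cd74 gave 0.83. Among 15 leukocyte genes tested 8 stood apart higher, with Ptprc, the pan-leukocyte CD45, at 6.82, 6.67 and 6.86 against 0.01 to 3.94 (difference 4.74), and Spi1, the factor PU.1, gave 5.39. Genes of T cells (Cd3d 0.02, Cd8a -0.28) and B cells (Cd79a 0.18) overlapped. So did Cd4, of T cells and some macrophages, at 3.49, 5.10 and 4.41 against 0.01 to 4.69 (difference 1.54), and the B cell gene Ms4a1, at 1.36, 2.37 and 1.87 against 0 to 1.63 (difference 1.41). The mast cell protease Cpa3 also overlapped (2.26), while Kit, the growth factor receptor of mast cells and melanocytes among others, gave 4.62. Of the same list, S100a8 stood apart higher, at 8.78, 8.84 and 8.17 against 5.66 to 7.43 (difference 1.80), and so did Itgax (1.63).

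Genes that myeloid cells secrete stood higher in part. Of 20 cytokine and chemokine genes 10 stood apart higher and none lower (median 1.34). The macrophage chemokines Ccl6, Ccl3 and Ccl4 gave 4.96, 4.69 and 4.19, and Il10 3.92. Il6, which fibroblasts also make, stood at 11.16, 11.18 and 10.05 against 7.37 to 9.02 (difference 2.71), whereas Ccl2 gave -0.24 and Ccl5 0.06. Of 11 complement genes 5 stood apart higher, among them the receptors C5ar1 (3.85) and C3ar1 (3.08) and the components Cfd and C4b, the last of which shares sequence with a near-identical copy. C3, the central component, gave -0.08.

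Acute phase proteins were listed after these values were seen, and 12 of 15 stood apart higher and none lower (median 2.48). Saa1, a serum amyloid, stood at 12.31, 12.06 and 13.88 against 8.73 to 9.53 (difference 3.59), and its neighbour Saa2 gave 2.85, reads of the 2 being hard to separate. Trf, which encodes transferrin, gave 3.40 and stood at 14.29, 14.13 and 14.40 against 10.11 to 11.48. Fgg, the gamma chain of fibrinogen, gave 6.69. Among genes above the median level, which leaves out larger differences of low genes, the 12 largest also included Pappa2, a protease of IGF-binding proteins (3.53), the Wnt antagonist Sfrp2 (3.22), neuropeptide Y, Npy (3.19), Spon1 (3.04), Igfbp5 (3.02), Cyp2f2 (2.94) and the imprinted RNA H19 (2.81). All 12 stood in every library of set 3 above every other library, which the rule that named them required.

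Nerve genes divided by cell type. Of 18 Schwann cell genes 11 stood apart higher and none lower, with a median of 1.90, or 0.78 with 10 added in place of 1. Members that overlapped included Egr2 (-0.29), Pou3f1 (0.14), Ncam1 (0.18), Pmp22 (0.33) and Gfap (1.78). Sox10, the defining factor of the Schwann lineage, stood at 7.69, 7.90 and 7.71 in set 3, against 3.14 to 4.99 (difference 3.86). Erbb3, the receptor for neuregulin, gave 4.03, Foxd3 3.28, L1cam 2.78 and Ngfr, the p75 neurotrophin receptor, stood at 10.87, 11.13 and 11.24 against 7.91 to 9.16 (difference 2.55). The myelin genes Mbp and Mag stood apart higher by 1.67 and 1.78. Mbp, however, gave 0.45 against set 2. Mag stood at 1.62 to 3.67 normalized counts in set 3 against at most 0.969, where a log2 difference depends on the added 1.

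Of 11 neuronal genes tested, none stood apart in either direction, and the median of 0.10 became -0.41 against set 2. Snap25, of synaptic vesicle release, gave 0.89, Elavl3 -0.53 and Syt1 -0.96. Among 15 neurotrophic factors and receptors 4 stood apart higher: Ngfr, the neurotrophin Ntf3 (2.25), Artn (1.77) and the receptor Ret (1.73). Bdnf gave -0.36 and Gdnf -0.22, and the median of 0.78 was 0.23 against set 2.

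Skeletal muscle genes also stood far higher in set 3. Myod1 and Myog, the factors that start and carry out muscle differentiation, stood at 4.04, 3.34 and 3.96 and at 4.02, 4.00 and 4.33, where no other library exceeded 0.15 and 1.16. Des, which encodes desmin, stood at 9.66 to 10.02 in set 3, against 4.56 to 5.94 (difference 4.79), and Myh3, the embryonic myosin, gave 4.68. Of 8 genes of that list 5 stood apart higher (median 3.70; 1.26 with 10 added), and their sum was 1260 to 1680 in set 3, against 64.7 to 88.4. Of 27 sarcomere and excitation genes tested, listed after these values were seen, 24 stood apart higher and none lower (median 4.34; 4.65 against set 2; 2.95 with 10 added). The adult myosin Myh1 stood at 11.19, 11.56 and 11.55 against 2.29 to 6.2 (difference 6.38), and Myl1 gave 5.55. Myh1, Myh2, Myh4 and Myh8 are close relatives in 1 cluster, so their shares of reads are uncertain. Myf5, an early muscle factor (-0.27), and Tpm2, a tropomyosin that other cells also make (0.15), overlapped.

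Smooth muscle genes mostly overlapped, and pericyte genes stood on both sides. Of 10 smooth muscle genes only Des, shared with skeletal muscle, stood apart, and the median of 0.34 was -0.31 against set 2. In all, 7 of the 10 differences lay above 0 and 3 below. Myh11 gave 1.82, or 0.24, 2.10 and 2.31 against sets 2, 4 and 5. Actg2 gave 1.14, or -0.71, 1.53 and 1.70 against the same sets. Both overlapped set 2. Of 9 pericyte genes tested 5 stood apart higher, with Mcam (CD146, shared with endothelium) at 9.5, 9.42 and 9.5 against 5.26 to 6.34 (difference 3.78). Rgs5 gave 3.32 and the channel gene Kcnj8 1.98. Cspg4, the pericyte proteoglycan NG2, stood lower, at 6.70, 6.89 and 7.37 against 8.12 to 8.83 (difference -1.55), and Pdgfrb, the receptor for the product of Pdgfb, overlapped (0.15). Of 7 adipocyte genes tested 4 stood apart higher, among them the fatty acid carriers Cd36 (2.06) and Fabp4 (1.17). Of 7 epithelial genes tested none stood apart.

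**Figure D3:**
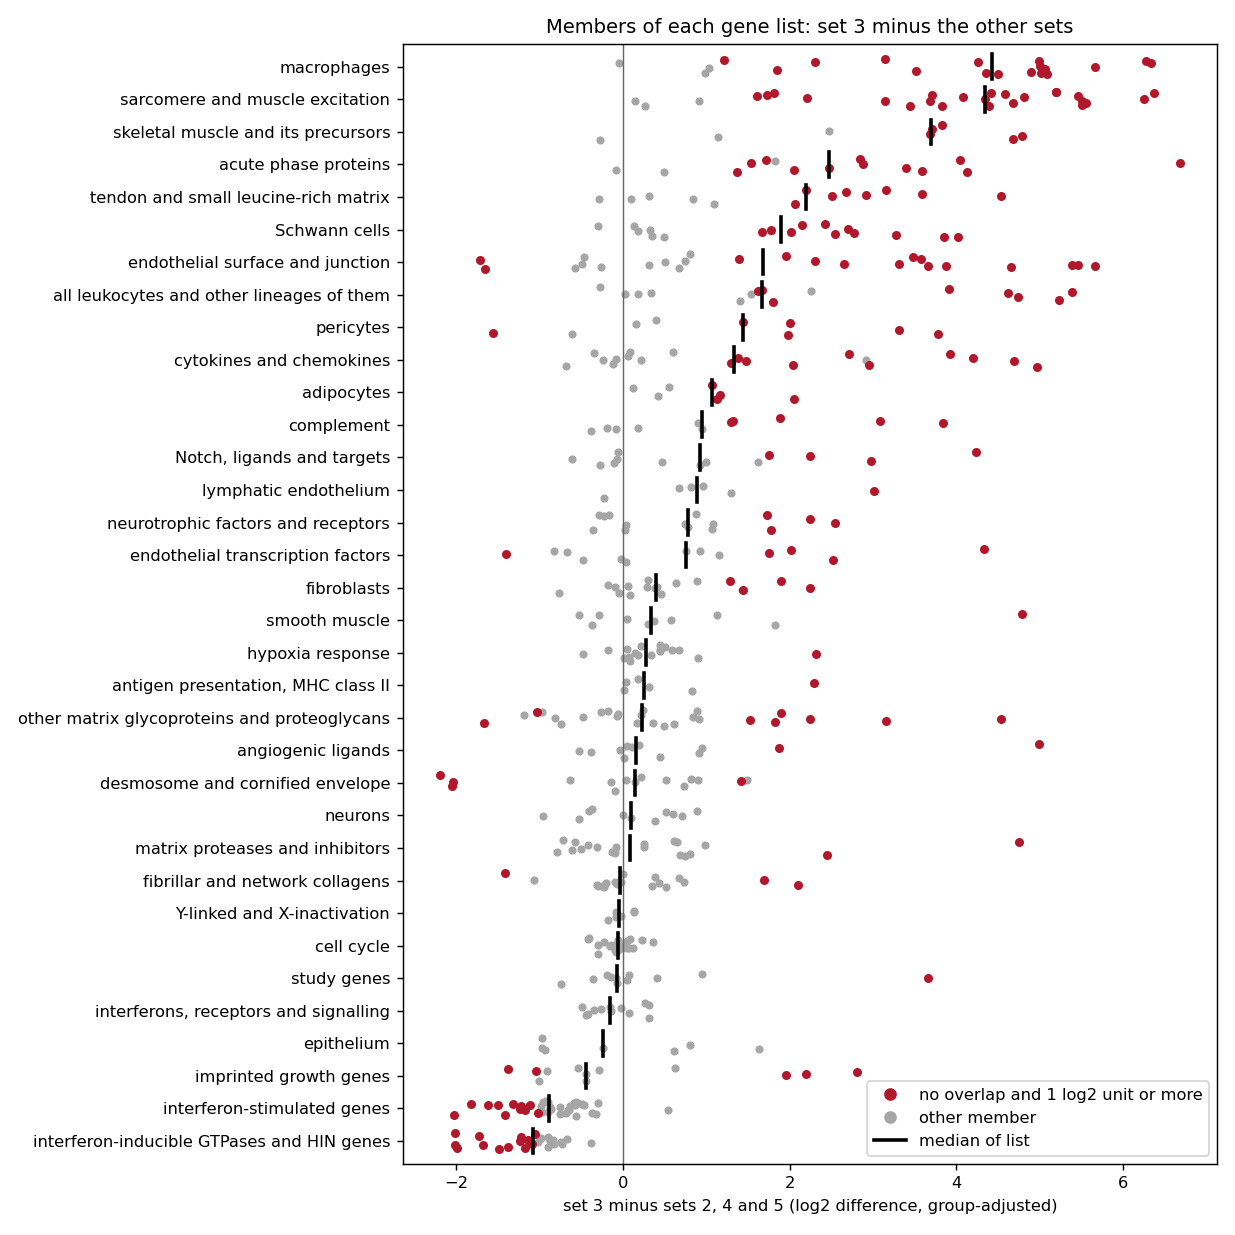
Difference of set 3 from sets 2, 4 and 5 (horizontal axis, log2, group-adjusted) for each tested member of 34 gene lists (rows), with members apart by at least 1 log2 unit in red, other members in grey and the median as a bar. Macrophage and sarcomere medians lie above 4 and interferon lists lie below 0, with most other lists between.

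Interferon-stimulated genes stood lower in set 3. Of 38 interferon-stimulated genes 11 stood apart lower and none higher, and by the rule without a minimum size, which 702 genes (3.85%) met on the lower and 1485 (8.14%) on the higher side, 26 stood lower and 1 higher. The median was -0.88, and -0.98, -0.83 and -0.77 against sets 2, 4 and 5. Mx1, an antiviral GTPase, stood at 6.65, 6.78 and 7.69 in set 3, against 8.38 to 10.63 (median 8.77), a difference of -2.03 (SE 0.447). Ifit3, an antiviral effector whose reads are hard to separate from those of Ifit3b, stood at 12.45, 12.76 and 13.54 against 14.29 to 15.38 (difference -1.82). Usp18, which damps interferon signalling, Rsad2, which encodes viperin, and the chemokine Cxcl10 gave -1.62, -1.49 and -1.32.

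The exception on the other side was Ifi27, at 11.52, 11.53 and 11.76 against 10.79 to 11.50 (difference 0.54). Within set 3 the normal glucose library was the highest for Ifit1, at 12.88, with 11.66 in high glucose and 11.78 with Hsp70, and reached past the lowest of the other libraries at 12.86. It did so for several more genes of the list, among them Isg15 (9.36, lowest other 9.10), Oas1a (9.59, lowest other 9.49) and Ifi44 (12.64, lowest other 12.39). Without that library the median of the list was -1.01. The 16 genes with the paired GAAA motif in the window, Ifit3 and Rsad2 shown above among them, had a median of -0.94 and the 12 without it -0.62.

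Inducible GTPases and related genes, listed after these values were seen, gave 13 of 24 apart lower and none higher, with a median of -1.07. Tgtp1 and Tgtp2, near-identical copies whose reads are hard to separate, gave -1.99 and -2.01, Gvin1 -1.72, Phf11b -2.01 and Cxcl9, the chemokine induced by interferon gamma, outside that list, -1.96. Of 12 interferons, receptors and signalling genes none stood apart by 1 log2 unit, and without a minimum size 2 stood lower and none higher. The receptor genes Ifnar1 and Ifnar2 gave -0.15 and 0.31 and the factor Irf1 -0.49. Those lower without overlap were the receptor kinases Jak1, at 13.82, 13.76 and 13.86 against 14.06 to 14.48 (difference -0.44), and Tyk2, at 8.41, 8.51 and 8.45 against 8.61 to 8.99 (difference -0.35). Ifnb1 was at 1.57 or less in every library.

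Among genes above the median level, which leaves out lower values of low genes, the other members of the 12 smallest differences were in no interferon list. Slc5a7, the choline transporter of cholinergic neurons, stood at 10.23, 10.22 and 9.77 against 10.54 to 12.66 (difference -2.19). Lrp4, the agrin receptor of the muscle synapse and a Wnt co-receptor, stood at 7.69, 7.82 and 8.19 against 8.98 to 10.56 (difference -2.14). The potassium channel Kcna4 and the cadherin Cdh6 gave -1.82 each. Among 15 genes of desmosomes and the cornified envelope, listed afterwards, Dsp (-2.19), Dsc3 (-2.05) and Ivl (-2.04) stood apart lower and Tgm1 higher. Imprinted genes went both ways, with H19, Igf2 (1.96) and Mest (2.19) apart higher and Dlk1 (-1.38) and Peg10 (-1.04) apart lower.

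Several groups stood level. None of 24 cell cycle genes stood apart (median -0.06), with Mki67, a marker of cycling cells, at 10.60, 11.05 and 10.89 against a median of 11.20, with overlap. Of 18 hypoxia genes only Car9 did, at 8.62, 8.92 and 8.76 against 5.85 to 7.05, and the median was 0.27. The Y-linked genes were high in every library, Ddx3y at 11.58, 11.62 and 10.94 against 10.76 to 11.87, and Xist stood at 3.28 or less in all. Of the 11 genes tied to the study's question, only Nos3 stood apart, and Cth, the cystathionine gamma-lyase of the title, gave 0.07 (SE 0.483).

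**Figure D4:**
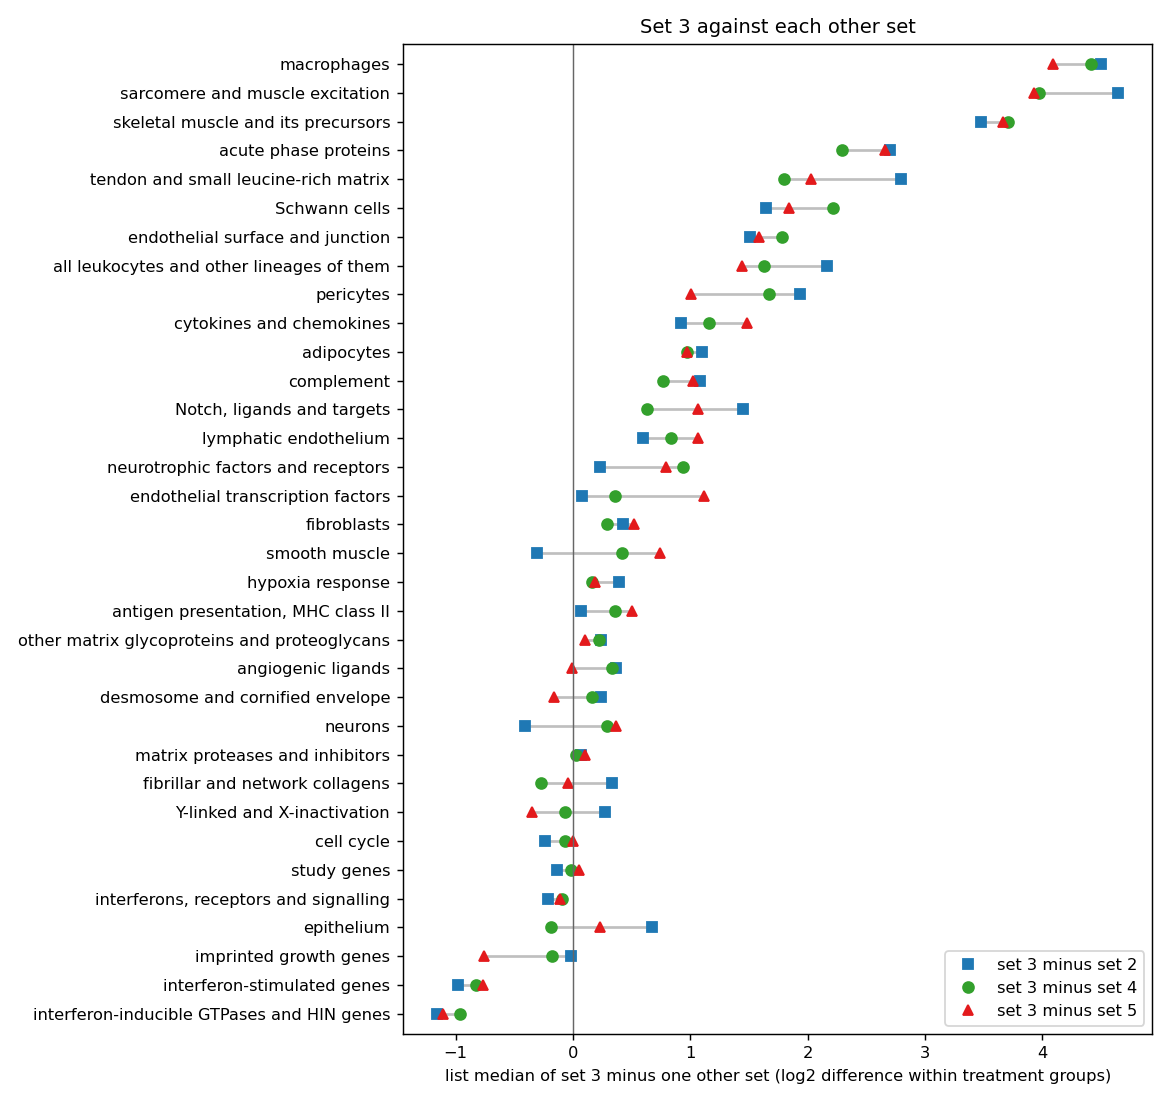
Median difference of each gene list (rows) for set 3 minus set 2 (squares), minus set 4 (circles) and minus set 5 (triangles), in log2 units within treatment groups. Macrophage medians lie at 4.50, 4.42 and 4.09 and interferon-stimulated medians at -0.98, -0.83 and -0.77, so all 3 sets lie on one side, whereas smooth muscle, neurons, collagens and epithelium change side between sets.

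The choice of set 3 used its levels and not its responses to treatment, which were tested. The first test asked whether high minus normal glucose differed between set 3 and sets 4 and 5. Limma's interaction term passed for 0 of 18248 genes (0%). Without adjustment limma's count was 486 genes, 228 of them higher and 258 lower in set 3. That is fewer than the share of 0.05 of the 18248 genes that chance would pass at this threshold. The median SE was 0.471 on 3 residual degrees of freedom, and 0 calls do not show equal responses. Txnip, a glucose-induced thioredoxin-binding protein, stood higher by 1.78 in set 3, at 11.80 in high and 10.02 in normal glucose, and by 0.71 and 1.04 in sets 4 and 5. The difference of these was 0.96 (SE 0.317, adjusted p = 0.963 by limma). Saa1 had a response of -1.57 in set 3, against 0.08 and 0.63 (difference -1.88, SE 0.37), and Ifit1 -1.23, against 0.21 and 0.63 (difference -1.59, SE 0.326), neither past the threshold. Acta2, the smooth muscle actin, had a response of -0.85 against 0.39 and 0.25. Saa4, another serum amyloid, had -3.23 against -0.40 and 0.45. On the other side, Lonrf3 had a response of 0.27 against -1.01 and -1.40, the nuclear receptor Nr4a3 0.96 against -0.42 and -0.49, the transferrin receptor Tfrc 0.30 against -0.56 and -0.74 and the lectin Clec1a 0.89 against -0.10 and -0.24. Acta2, Saa4, Lonrf3, Nr4a3, Tfrc and Clec1a did not pass either. Cth had a response of -0.10 against 0.02 and -0.30.

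These responses rest on 1 pair of libraries a set, and the normal glucose library of set 3 is the one that stood apart above. The high minus normal glucose response in set 3 correlated with GC content at -0.344 across genes, against -0.0623 and 0.152 in sets 4 and 5, and its mean size was 0.307, against 0.173 and 0.221. Without Hsp70 replicate 3, the library of set 4 that stood farthest out, 10 genes passed (adjusted p = 0.0368 to 0.0415 by limma), and they are named here after their values were seen. They included Gm15645, Cyp2e1, Pbld1, Exosc2, Tmem69 and Pola2, whose response stood higher in set 3, and Wnt4, Ffar2 and Slc35f1, whose response stood lower. Exosc2, an exosome subunit, stood at 11.24, 11.13 and 9.62 in set 3, and in set 4 at 10.98, 9.64 and 11.25 in the same order, with sets 2 and 5 at 9.36 to 9.63. For all 10 genes the high glucose and Hsp70 libraries of set 3 stood on one side of its normal glucose library, and the high and normal glucose libraries of set 4 stood on that side of its Hsp70 library. The levels of these genes thus cut across the sets. The labels name no preparation batch, and neither the part of library composition in these values nor the labels of the set 3 normal glucose and set 4 Hsp70 libraries were tested, so the responses given here hold only for the libraries as labelled.

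**Figure D5:**
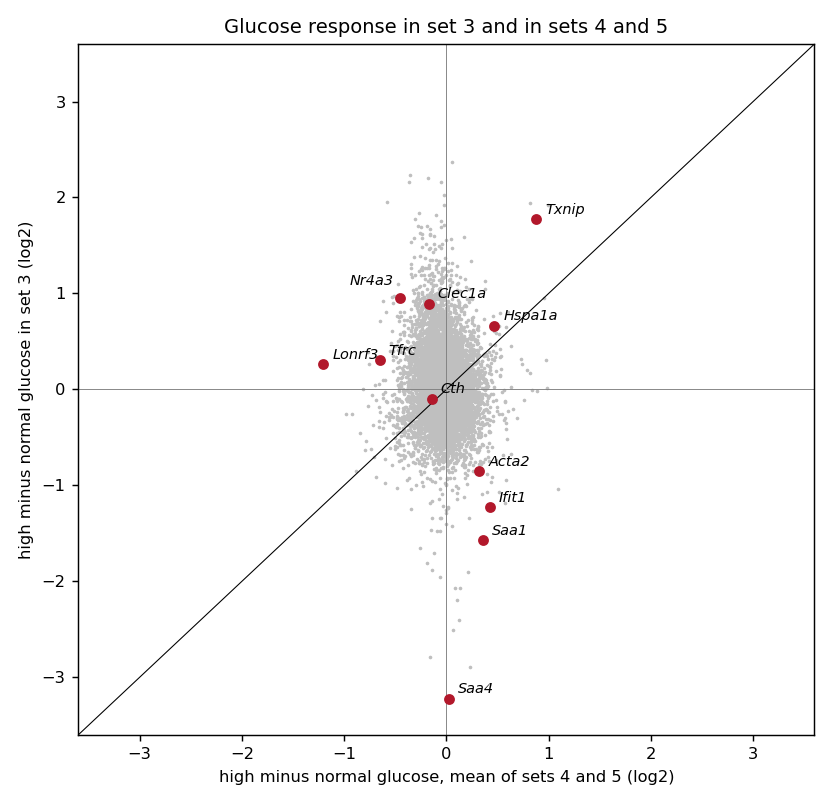
Log2 difference of high minus normal glucose in set 3 (vertical axis) against the mean of sets 4 and 5 (horizontal axis) for 9124 genes above the median level, with 11 named genes in red and the line of equal response. Txnip lies in the upper right, at 1.78 in set 3, and Saa4 lies lowest, at -3.23. The cloud is taller than it is wide, but the mean of sets 4 and 5 narrows the horizontal spread. Its shape therefore does not compare the sizes of responses.

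The second test asked whether Hsp70 minus high glucose differed between set 3 and sets 2, 4 and 5. Limma's term again passed for 0 genes (0%), and its count without adjustment was 184, 123 higher and 61 lower in set 3. This count too lies below the share of 0.05 that chance would pass. The median SE was 0.45. Apc2, a relative of the Wnt pathway scaffold Apc, had a response of 1.22 in set 3, at 9.90 with Hsp70 and 8.68 without, against -0.03, -0.54 and -0.33 in sets 2, 4 and 5 (difference 1.52, SE 0.393; adjusted p = 1.0 by limma). The response of Txnip was -0.08 in set 3, and that of Hspa1a, a stress-inducible Hsp70 gene with a near-identical copy in Hspa1b, was -0.05. Relative to sets 2, 4 and 5 the response stood higher, with no call, by 2.05 for the glutamate receptor gene Grin3b, by 2.20 for Hmha1 and by 2.30 for the kinase Plk5. It stood lower for Hmgb3 (-1.11), Gpatch4 (-0.73), Pcdhga8 (-0.93) and Usp39 (-0.69). That of Cth was -0.01 in set 3, against 2.91, 0.17 and 0.17 in sets 2, 4 and 5. Pecam1 in set 3 stood at 8.86 with Hsp70 and 9.01 in high glucose alone, and Adgre1 at 9.26 and 9.52.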

How the data were processed

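RNA of 11 libraries (normal glucose 3, high glucose 4, high glucose with Hsp70 4) was analysed from the deposited values, 1 file per library. Per the labels, 1.3 ug of RNA went into each SMARTer stranded preparation. The deposited scale is log2; that it is log2(normalized count + 1) was inferred, since no label or header says so. TopHat, edgeR and mm10 are named, without versions, in the submitters' processing notes; how values were normalized, which annotation and strand setting served and what became of multi-mapped reads is not stated in the labels. Of 23282 rows per file, 44 repeated symbols were dropped, and 18248 genes that reached 1 normalized count in 3 or more libraries entered the tests. Positions and lengths came from GENCODE M21 (22197 genes, 95.5%), base composition from its longest transcript (96.3% of 12081 genes above a mean of 6).

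Set 3 minus the other sets was fitted with limma 3.58.1 in R 4.3.3, with treatment group as covariate, trended and robust variance and Benjamini-Hochberg adjustment at 0.05, the threshold also used for counts without adjustment. Responses were tested by interaction terms with the set as a block. The scripts were tested on simulated data. Figures were drawn with matplotlib 3.10.9. The libraries and gene lists were chosen with earlier results of these data known, and 6 lists after these values were seen. Text names the 12 largest and 12 smallest differences without overlap above the median level, the markers given with the comparison, up to 5 members of each list by size and those on its other side, and the 4 genes of smallest p in each direction of each response with Txnip, Hspa1a and Cth. Other genes named were chosen after their values were seen. A few genes are not reported here.

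Numbers in sample titles match the sets for the high glucose and Hsp70 libraries, but not for the normal glucose libraries. Numbers agreed while sets differed only in pairs with a normal glucose library, and there correlations of deviations were -0.357 to 0.137. The best partner in another group shared the set for 10 of 11 libraries and the title number for 4. Within sets these correlations were 0.458 to 0.691 in set 3, 0.422 in set 2, 0.0219 to 0.302 in set 4 and 0.262 to 0.372 in set 5. Pairs of different sets reached 0.254, which lies inside the range of set 4. Alternatives were quantile normalization or median centring, a filter at 10 or none, 10 added in place of 1, no trended prior, each library left out, set 2 or sets 4 and 5 alone, no group covariate, and blocks by title number or set.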

Additional observations from a re-analysis of the deposited data

Results flagged for a closer look

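In the 8 libraries outside set 3, 156 named genes were examined for 1 library standing far from the rest (a gap over 0.526 of the range), and 11 were flagged; chance flags about 1 in 20. Hsp70 replicate 3, of set 4, was the library in 6 of the 11. It was lowest for Slc5a7 (10.54, next 12.24), Gvin1 (11.40, next 12.34), the lymphatic factor Prox1 (0.01, next 2.94), the mitotic kinesin Kif11 (7.77, next 8.42) and the Y-linked Uty (8.26, next 9.40), and highest for the chemokine Ccl4 (1.01, next 0.22). Hsp70 replicate 4, of set 5, was lowest for Lyz2 (5.91, next 6.76) and Notch4 (2.42, next 3.59). High glucose replicate 4, of set 5, was highest for Sox18 (1.14, next 0.22). In set 4, high glucose replicate 3 was highest for Il10 (1.16, next 0.18) and normal glucose replicate 2 for the leukocyte gene Cd52 (2.08, next 0.20). The 4 high values lie at or under 2.08.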

How the results depend on the processing

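Of 158 named genes, 12 changed the sign of their difference under 1 or more alternatives, Actg2 (1.14), Krt14 (-0.96) and Mki67 (-0.30) among them, and 0 of the 12 stood apart. Over all alternatives 3157 of 3303 values of these genes and 671 of 714 list medians moved by less than the spread between libraries. List medians near 0 changed sign under 1 or more alternatives for class II presentation, neurons, smooth muscle, epithelium, collagens, cell cycle, Y-linked and X-inactivation, study genes and desmosomes, and that of proteases came to 0. The 1537 genes in limma's count, a description since these levels prompted the comparison, became 2567 with set 2 alone, 877 with a replicate block by title number and 911 with the set as a random block. Leaving out 1 library gave 722 to 2102, with 722 without high glucose replicate 2 and 794 without Hsp70 replicate 2, both of set 3. The 1171 genes apart by 1 log2 unit became 2946 against set 2 alone and 1191 to 1556 without 1 library. With no filter, the fit on set means called 58 in place of 541, and the 2 tests of response called 421 and 475 in place of 0; of these 371 and 440 were genes under the filter. Leaving out 1 library gave 0 to 10 calls for high minus normal glucose, with 10 without Hsp70 replicate 3 and 0 to 0 for Hsp70. The paired fit by title number called 0 in both. Scaling moved the median of all genes by less than 0.1. Under 1 normalized count, values differ in kind between sets 2 and 3 and sets 4 and 5, which limits differences of the lowest genes. Nothing here measures the spread between sets of the kind of set 3, of which there was 1.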

Other observations

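Over the 3 libraries of set 3 Pecam1 spanned 8.86 to 9.07, Adgre1 9.14 to 9.52, Sox10 7.69 to 7.90 and Myh1 11.19 to 11.56. Saa4 spanned more, at 14.61 in normal glucose with 11.38 in high glucose and 11.37 with Hsp70. These are values, with no test.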
